A study of Mus musculus with 22 samples.

Results

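Injured tubule cells of the kidney switch on a set of genes that healthy tubules keep low, and 10 of these were followed here in the kidneys of young mice, old mice and old mice fed nicotinamide. They were taken by symbol from the count table (10 of 55487 gene entries, 1 entry for each symbol): Havcr1, Lcn2, Vcam1, Spp1, Clu, Sox4, Sox9, Cd44, Dcdc2a and Il34. The animals were wild-type male C57BL/6JRj mice. The young group had 6 mice aged 4 months on no supplement, the old group 8 mice aged 21 months on no supplement, and the treated group 8 mice aged 21 months whose diet held nicotinamide (NAM), the amide form of vitamin B3. The treated mice took 200 mg per kg of body weight per day, given as 1.6 g per kg of food, for 14 weeks. RNA came from a 10 to 20 mg piece of kidney, 1 library per animal, and the region of the kidney is not stated. Polyadenylated transcripts were counted at their 3′ ends, and a level (CPM) is the number of 3′ reads of a gene scaled to a common library size.

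After an acute insult, surviving proximal tubule cells lose part of their differentiated state, proliferate and refill the tubule. Cells that complete this repair switch the injury genes off again. Cells that do not are called failed-repair or maladaptive tubule cells; they keep an inflammatory and profibrotic programme and are known from acute kidney injury that goes on to chronic disease. Havcr1 (KIM-1) and Lcn2 (NGAL) are the usual markers of the acute state, Vcam1 and Dcdc2a those of failed repair, and Sox4 and Sox9 are transcription factors of cells that regenerate or stay dedifferentiated. Several are also made outside tubules: Cd44, Spp1 and Vcam1 by leukocytes or vessels among others. In a piece of tissue a change in the number of such cells and a change in RNA per cell cannot be told apart.

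RefSeq held promoter windows (250 bases before to 50 after a start site, build GRCm38.p6) for 6 of the 10 genes, 9 windows in all. They were searched on both strands for the kappaB consensus, AP-1 (TGANTCA), STAT (TTCNNNGAA) and TEAD (GGAATG), motifs of factors that act in injured epithelium; the motifs did not overlap. The 3 windows with a match belong to genes that differed by age below, and they are shown for that reason, with the matches in capitals and each in the direction of its gene. Havcr1 (chr11:46750918-46751217, plus strand, the third of 3 windows) held a match to the AP-1 letters, TGAATCA, with A at the open position N. It began 11 bases into the transcribed part. Dcdc2a (chr13:25055754-25056053, plus strand) held a STAT match that began at base −131 from the start site, and Sox4 (chr13:28953650-28953949, minus strand) a TEAD match at base −168.
Havcr1: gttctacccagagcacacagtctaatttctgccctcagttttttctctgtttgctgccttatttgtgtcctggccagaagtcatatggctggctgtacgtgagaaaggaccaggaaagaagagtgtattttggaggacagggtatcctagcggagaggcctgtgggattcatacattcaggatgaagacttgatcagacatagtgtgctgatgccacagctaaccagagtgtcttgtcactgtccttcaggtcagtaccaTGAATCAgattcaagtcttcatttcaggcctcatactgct
Dcdc2a: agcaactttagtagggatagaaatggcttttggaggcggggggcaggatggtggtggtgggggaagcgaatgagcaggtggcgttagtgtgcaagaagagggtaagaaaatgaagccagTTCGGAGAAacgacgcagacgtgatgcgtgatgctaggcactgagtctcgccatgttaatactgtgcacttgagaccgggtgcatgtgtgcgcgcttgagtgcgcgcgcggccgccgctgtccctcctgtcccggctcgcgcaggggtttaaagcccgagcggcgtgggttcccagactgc
Sox4: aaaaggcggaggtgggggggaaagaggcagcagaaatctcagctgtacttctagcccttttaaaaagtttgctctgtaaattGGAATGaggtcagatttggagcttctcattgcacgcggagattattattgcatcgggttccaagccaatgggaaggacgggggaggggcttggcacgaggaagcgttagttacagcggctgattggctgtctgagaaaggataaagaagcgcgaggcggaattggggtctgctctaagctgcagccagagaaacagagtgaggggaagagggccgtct
Of all 32851 RefSeq windows, 7.81% held the AP-1 letters, 8.30% the STAT letters, 14.7% the TEAD letters and 8.46% the kappaB consensus. The kappaB consensus was in 0 of the 9 windows of these genes, which are too few to set against its share of all windows. No window was found under the symbols Vcam1, Clu, Sox9 and Il34, so their promoters were not searched. A match is a description of the letters and not of a bound site.

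Libraries held 3351065 to 8319865 gene counts, and the shallowest was young replicate 6. Of 55487 entries 14683 were tested, the 10 genes among them. All 24 genes listed for proximal tubule identity were present and tested, with a summed level of 10940 to 23103 CPM. Nicotinamide replicate 1 had the lowest of these sums, and old replicate 7 the next, with 14404 CPM. Both also had the highest summed levels of their groups for urothelial (113 and 111 CPM), adipocyte (744 and 246 CPM) and collecting duct markers (1063 and 963 CPM). Nicotinamide replicate 7 had a summed level of T and natural killer cell markers of 256 CPM, against at most 45.9 CPM in every other library. Where nicotinamide replicate 1 moved a call or a fold change of the 10 genes most, the value without it is given below. The nicotinamide values of the other lists and the correlations with all tested genes are given with it only.

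The first comparison, old against young, asks how the injury genes differ with age. Of the 10 genes 7 rose with age: Havcr1, Vcam1, Clu, Sox4, Sox9, Cd44 and Dcdc2a. Lcn2, Spp1 and Il34 did not pass in the fit of all 22 libraries, with log2 fold changes of 1.98, 0.67 and 0.05. Over all genes tested, 3.90% were higher and 3.15% lower with age at this threshold (7.04% together; a Benjamini-Hochberg adjusted p below 0.05 in edgeR's quasi-likelihood test), and the 10 genes had a median log2 fold change of 1.15 against 0.01 for all genes. The 10 were proposed with results of these data known, so their count is a description of a chosen list.

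**Figure D1:**
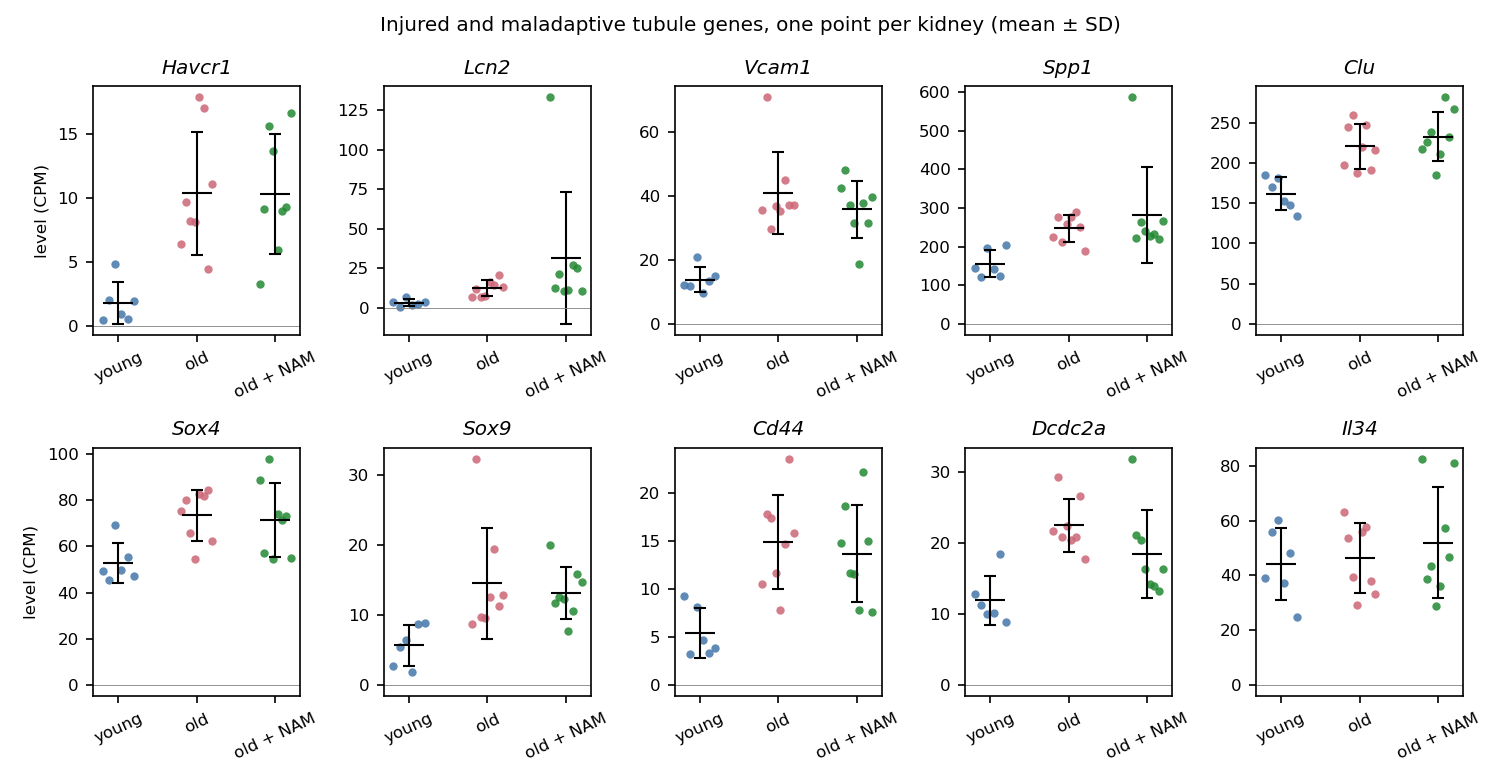
Level of each gene in CPM (vertical axes, linear, from 0) in young, old and nicotinamide-treated old kidneys; each point is 1 kidney, and the bars give the mean ± SD (n = 6, 8 and 8). Old and treated points sit above most young points in every panel but Il34, and 1 treated kidney stands far above the rest for Lcn2 (133 CPM) and Spp1 (587 CPM).

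Havcr1 encodes KIM-1, a membrane receptor by which injured proximal tubule cells take up dying neighbours. It was at 0.473 (lowest), 1.43 (median) and 4.80 (highest) CPM in the 6 young kidneys and at 4.41, 8.92 and 17.9 CPM in the 8 old ones. The young values rest on 3 to 32 reads a library, the old on 30 to 98. Of the old kidneys 7 lay above the highest young kidney, young replicate 3, and the groups overlapped through 1 old kidney, replicate 7. The difference was 2.51 ± 0.46 on the log2 scale (SE; 95% interval 1.56 to 3.46; adjusted p = 0.00142).

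Lcn2 encodes lipocalin 2, an iron-siderophore binding protein that injured distal tubules and neutrophils secrete. Its young values were 0.725, 3.07 and 6.60 CPM (lowest, median, highest) and its old values 6.71, 12.6 and 20.6 CPM. The groups did not overlap. Young replicate 3, the highest young kidney, also had the highest young sum of neutrophil markers (5.85 CPM). Among the old kidneys replicate 1 had the highest such sum (7.63 CPM) and the lowest level of Lcn2. Old replicate 7, with the highest old level of Lcn2, had a neutrophil sum of 7.06 CPM. It also had the highest old urothelial and collecting duct sums, given above. The part of neutrophils and of these other cells in the levels of Lcn2 was not tested. The log2 fold change of 1.98 ± 0.68 did not pass (95% interval 0.56 to 3.40; adjusted p = 0.0887 in edgeR). Nicotinamide replicate 1, with 133 CPM of Lcn2, is in neither group but enters the common estimate of the spread. Without it the difference was as large (1.97) and passed (adjusted p = 0.00212). It also passed in the fit of both groups alone (0.000412) and in DESeq2 (0.0113). Over 32 alternatives the adjusted p ran from 0.000412 to 0.190.

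Clu and Spp1 encode secreted proteins of stressed epithelium. Clusterin, the product of Clu, is an extracellular chaperone. Its young levels were 134, 162 and 186 CPM and its old levels 188, 218 and 260 CPM, with no overlap, and it rose by 1.36-fold (0.44 ± 0.09, adjusted p = 0.00225). This was a small change beside that of Havcr1, measured with a small spread (SD 12.5% of the mean in either group). Osteopontin, the product of Spp1, is a matrix and cytokine-like ligand of integrins and of CD44. Spp1 was at 122, 143 and 204 CPM in young and at 188, 255 and 289 CPM in old kidneys. Of the old kidneys 7 lay above every young one. The log2 fold change of 0.67 ± 0.21 missed the threshold (adjusted p = 0.0592). Here too nicotinamide replicate 1 bore on the spread: without it the change was 0.67 with an adjusted p = 7.09e-05, and over 32 alternatives the adjusted p ran from 1.40e-05 to 0.132. Without nicotinamide replicate 1, 9 of the 10 genes passed, beside 1305 of all genes.

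Vcam1 encodes an adhesion molecule of activated endothelium that failed-repair tubule cells also display, where it binds integrin α4β1 of leukocytes. It had the lowest p of the 10 genes. The young kidneys were at 9.71, 12.7 and 20.9 CPM and the old at 29.4, 36.9 and 70.7 CPM, with no overlap. The log2 fold change was 1.57 ± 0.20 (95% interval 1.16 to 1.99; adjusted p = 1.45e-05). Vcam1, Lcn2 and Clu were the 3 of the 10 genes whose old values all lay above all young values, against 1.33% of all genes tested.

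Dcdc2a encodes a doublecortin-domain protein of microtubules and cilia and is a marker of failed repair. Its levels were 8.92, 10.7 and 18.5 CPM in young and 17.8, 21.2 and 29.3 CPM in old kidneys. The groups overlapped only through young replicate 5, the highest young kidney, and old replicate 8, the lowest old one. It rose by 1.87-fold (0.90 ± 0.19, adjusted p = 0.00173). Il34 encodes interleukin 34, a ligand of the macrophage receptor Csf1r that failed-repair cells are known to secrete. It was at 24.8, 43.6 and 60.0 CPM in young and at 29.2, 46.5 and 63.0 CPM in old kidneys, and the groups overlapped over nearly their whole ranges. Its log2 fold change was 0.05 ± 0.25 (95% interval −0.48 to 0.58; adjusted p = 0.938).

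The transcription factors Sox9 and Sox4 both rose, by different amounts. Sox9, which is switched on in regenerating tubule cells, was at 1.88, 5.98 and 8.92 CPM in young and at 8.69, 12.0 and 32.4 CPM in old kidneys. Of the old kidneys 7 lay above every young one, and the rise was 2.62-fold (1.39 ± 0.33, adjusted p = 0.00962). Sox4, of the SOXC group of the family, was at 45.2, 49.7 and 69.2 CPM in young and at 54.6, 77.4 and 84.4 CPM in old kidneys. Of the old kidneys 5 lay above the highest young one, and replicate 7 was the highest. It rose by 1.39-fold (0.47 ± 0.13, adjusted p = 0.0170), a call that was lost without young replicate 2 (adjusted p = 0.0546) or young replicate 4 (0.0502); over 32 alternatives the adjusted p ran from 0.000901 to 0.0546. Of the other members of both groups, Sox11 and Sox12 were tested and did not pass (log2 fold changes 0.43 ± 0.52 and −0.02 ± 0.29), while Sox8 and Sox10 were too low to test.

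Cd44 encodes the hyaluronan receptor, which injured tubule cells and leukocytes both carry. Young kidneys were at 3.19, 4.26 and 9.30 CPM and old kidneys at 7.84, 15.2 and 23.5 CPM, the highest in old replicate 7. Of the old kidneys 7 lay above every young one, and the log2 fold change was 1.44 ± 0.28 (adjusted p = 0.00107). Leukocyte and stromal markers moved with age as well, beside the 3.90% of all genes tested that rose. Summed levels of 18 macrophage and dendritic cell markers were 256 to 305 CPM in young and 472 to 904 CPM in old kidneys. Of the 18, 14 rose (77.8%). For 12 fibroblast and mural markers the sums were 324 to 479 and 533 to 867 CPM, and 8 rose (66.7%). For 12 endothelial markers they were 608 to 703 and 667 to 770 CPM, and 1 rose (8.33%). Of 8 neutrophil markers 1, Camp, had no read in any library. Their sums were 0, 1.97 and 5.85 CPM (lowest, median, highest) in young and 1.92, 5.97 and 7.63 CPM in old kidneys. Of 2 that were tested 0 passed in edgeR and 1 in DESeq2. For 4 parietal epithelial markers, taken after their values were seen, the sums were 82.2 to 105 and 99.0 to 162 CPM; Cldn1 (1.54-fold) and Ncam1 (1.63-fold) rose (adjusted p = 0.0109 and 0.0364 in edgeR), and Pax2 and Krt8 did not pass. Among T and natural killer cell, and B and plasma cell markers 2 of 8 (25%) and 3 of 7 (42.9%) tested genes rose, and 0 of 6 urothelial ones. The part of these cells in the rise of Cd44, Vcam1 and the other genes was not tested.

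**Figure D2:**
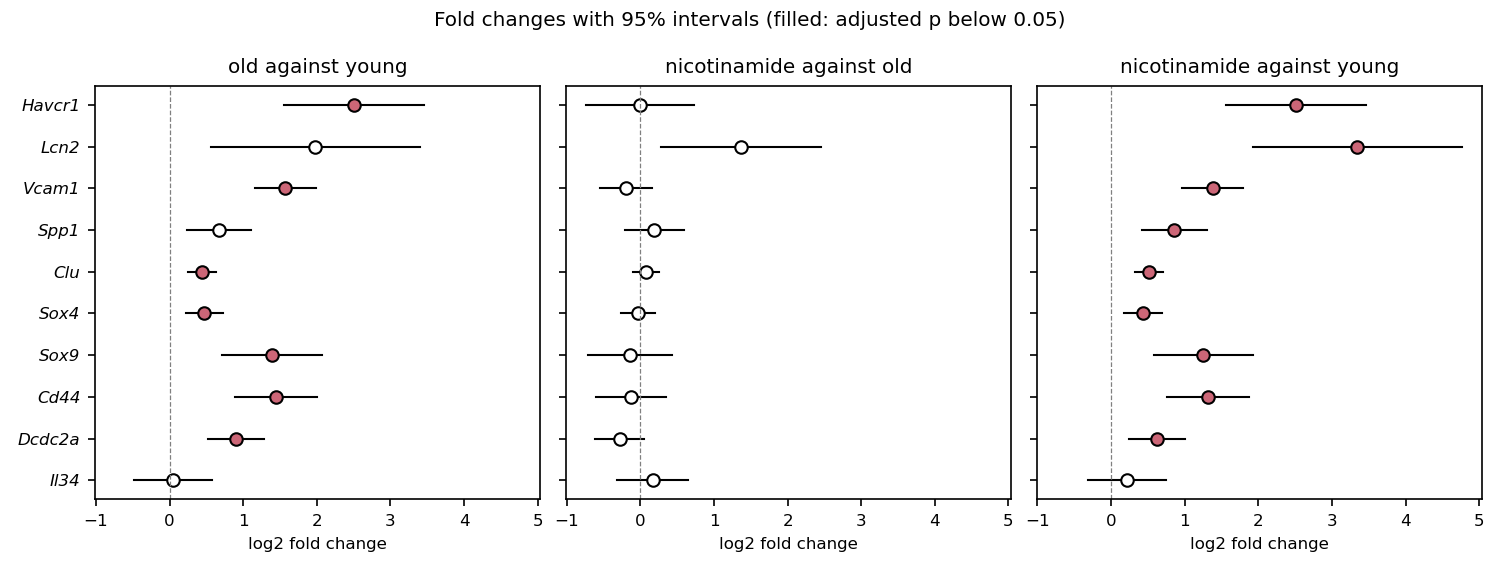
Log2 fold change of each gene (horizontal axes) with its 95% interval in the 3 comparisons; filled points passed at an adjusted p below 0.05 in edgeR. In old against young 7 points are filled, in nicotinamide against old 0, and in nicotinamide against young 9.

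The second comparison, nicotinamide against old, asks whether these genes differ in old kidneys after 14 weeks of the supplement. No call was made: 0 of 10 in edgeR, 0 in DESeq2 and 0 in limma-voom, with 1, Lcn2, at an unadjusted p below 0.05 (6.18% of all genes). Over all genes 4 of 14683 (0.0272%) passed. The median log2 fold change of the 10 genes was −0.02, against 0.01 for all genes. The treated kidneys share their comparison group with the first comparison, so the values are set side by side and no overlap is drawn.

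Havcr1 was at 3.24, 9.21 and 16.7 CPM (lowest, median, highest) in the 8 treated kidneys, close to its 4.41, 8.92 and 17.9 CPM in old ones. The interval of its log2 fold change was −0.74 to 0.73, which allows a fall to 0.600-fold or a rise to 1.66-fold. Vcam1 was at 18.5, 37.5 and 48.0 CPM, with 1 treated kidney, replicate 5, below every old one (−0.19 ± 0.17, adjusted p = 0.916). Clu (186, 230 and 282 CPM) and Sox4 (54.6, 72.2 and 97.8 CPM) had the narrowest intervals of the 10, at −0.10 to 0.25 and −0.27 to 0.19 on the log2 scale. Sox9 was at 7.69, 12.5 and 20.1 CPM (−0.14 ± 0.28), Cd44 at 7.64, 13.2 and 22.1 CPM (−0.13 ± 0.23) and Il34 at 28.9, 45.2 and 82.5 CPM (0.17 ± 0.23). For each of these 7 genes the treated and old ranges overlapped. Without nicotinamide replicate 1 the log2 fold changes of Havcr1, Sox4, Sox9 and Il34 were 0.14, −0.09, −0.25 and 0.040, and none passed.

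Dcdc2a, the microtubule protein of failed repair, had the lowest log2 fold change of the 10. Treated kidneys were at 13.2, 16.3 and 31.9 CPM, and 5 of the 8 lay below the lowest old kidney (17.8 CPM), while replicate 1 lay above the highest. The log2 fold change of −0.28 ± 0.16 did not pass (95% interval −0.61 to 0.05; adjusted p = 0.841). Without replicate 1 it was −0.44 (adjusted p = 0.372), and over 32 alternatives it ran from −0.44 to −0.22 with adjusted p from 0.372 to 0.916.

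Lcn2 and Spp1 had the highest log2 fold changes of the 10, and nicotinamide replicate 1 moved both. Lcn2 was at 10.4, 17.1 and 133 CPM in treated kidneys, and the next highest kidney had 27.2 CPM. Of the 8 treated kidneys 4, replicates 1, 3, 6 and 7, lay above the highest old kidney (20.6 CPM). The log2 fold change was 1.37 ± 0.52 (95% interval 0.28 to 2.46; adjusted p = 0.690), and without replicate 1 it was 0.47 (adjusted p = 0.750). Spp1 was at 219, 236 and 587 CPM, with the next kidney at 265 CPM. Its log2 fold change was 0.19 ± 0.19 (adjusted p = 0.929), and it turned to −0.05 without replicate 1. In that kidney proximal tubule identity genes summed to 10940 CPM, against 17337 to 19904 CPM in the other treated kidneys, and neutrophil markers to 26.4 CPM, against at most 8.35 CPM. Its urothelial, adipocyte and collecting duct sums are given above; the part of these cells in its Lcn2 and Spp1 levels was not tested. Replicate 1 had the highest level of its group for 5 of the 10 genes (Lcn2, Spp1, Sox9, Dcdc2a and Il34) and the lowest for Havcr1.

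Against young kidneys, treated old kidneys had higher levels of 9 of the 10 genes, all but Il34 (log2 fold change 0.22 ± 0.25, adjusted p = 0.685); 4.73% of all genes were higher in this comparison, and 8.70% differed. It shares its libraries with both others. Lcn2 and Spp1 were the 2 whose treated and young values did not overlap (1.13% of all genes, higher). Lcn2 differed by 3.35 ± 0.68 (adjusted p = 0.00399), or by 2.45 without replicate 1 (adjusted p = 0.000413). Spp1 differed by 0.86 ± 0.21 (adjusted p = 0.0134), or by 0.62 without it (0.000355). Havcr1 (2.51 ± 0.46, adjusted p = 0.00117) and Vcam1 (1.38 ± 0.20, adjusted p = 6.30e-05) differed as well, beside 2.51 and 1.57 in untreated old kidneys. Clu, Sox9 and Cd44 differed by 0.52 ± 0.09, 1.25 ± 0.33 and 1.32 ± 0.27, with adjusted p of 0.000315, 0.0158 and 0.00191. The calls of Sox4 (0.44 ± 0.13, adjusted p = 0.0239) and Dcdc2a (0.62 ± 0.19, adjusted p = 0.0277) were the least firm. Both failed in 8 of 32 alternatives (adjusted p up to 0.151 and 0.159), among them without replicate 1 (0.0502 and 0.104). Without replicate 1, 7 of the 10 genes passed, beside 1054 of all genes.

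From kidney to kidney, pairs of the 10 genes varied together to unlike degrees. After centring log2 CPM on group means, the 45 pairs had a median Pearson r of 0.295 over the 22 kidneys, from −0.519 (Havcr1 and Dcdc2a) to 0.759 (Lcn2 and Spp1), and 36 were positive. Of the 45, 3 passed in a permutation test within groups (two-sided, 100000 permutations, adjusted over the 45 pairs), and 0 passed by Spearman's rho.

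The first was Vcam1 with Sox9 (r = 0.701, permutation p = 0.00037, adjusted p = 0.0167; rho = 0.670, permutation p = 0.00116, adjusted p = 0.0522). It had r of 0.634, 0.930 and 0.628 within young, old and treated kidneys, and 0.542 without the 2 kidneys farthest from the median of Vcam1. Old replicate 2 was the highest old kidney for Vcam1 (70.7 CPM), Sox9 (32.4 CPM) and Dcdc2a (29.3 CPM), and had the highest macrophage sum of the old group (904 CPM) and the second highest parietal epithelial sum (131 CPM). The part of these cells in this pair was not tested.

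Lcn2 with Sox4 was the second pair (r = 0.652, permutation p = 0.00181, adjusted p = 0.0407; rho = 0.615, permutation p = 0.00341, adjusted p = 0.0767). Its r was alike in the 3 groups (0.698, 0.625 and 0.662) and was 0.625 without the 2 kidneys farthest in Lcn2. Lcn2 with Spp1 was the third (r = 0.759, permutation p = 0.00320, adjusted p = 0.0480; rho = 0.579, permutation p = 0.00730, adjusted p = 0.110). Its r was 0.773, 0.355 and 0.847 within young, old and treated kidneys. It was 0.377 without the 2 kidneys farthest in Lcn2, so the pooled value rests on them. Havcr1 with Dcdc2a, the most negative pair, did not pass (r = −0.519, permutation p = 0.0237, adjusted p = 0.213; rho = −0.404, permutation p = 0.0757, adjusted p = 0.379; r = −0.314 without the 2 farthest). Without the 4 kidneys that stood apart or were shallow (young replicate 6, old replicate 7, nicotinamide replicates 1 and 7), 1 pair passed. It was Vcam1 with Sox9 (r = 0.720, permutation adjusted p = 0.0306, 18 kidneys). Lcn2 with Sox4 then had r = 0.647 (permutation adjusted p = 0.0884) and Lcn2 with Spp1 r = 0.541 (permutation adjusted p = 0.228).

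**Figure D3:**
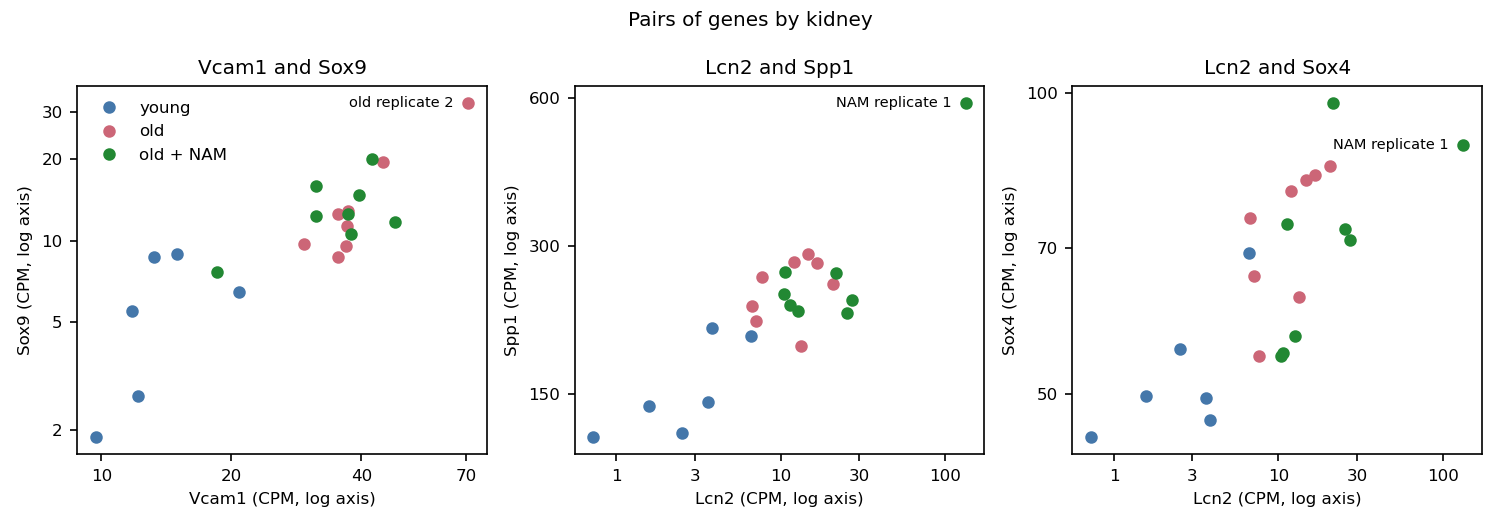
Levels of Vcam1 and Sox9, Lcn2 and Spp1, and Lcn2 and Sox4 in each of the 22 kidneys (both axes in CPM, logarithmic; colours give the group). Old replicate 2 lies at the top right for Vcam1 and Sox9 (70.7 and 32.4 CPM), and nicotinamide replicate 1 at the top right for Lcn2 and Spp1 (133 and 587 CPM).

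Among all tested genes, those that varied most like each of the 10 over the 22 kidneys, again centred on group means, were picked by their r and so carry no test. These r were not taken again without nicotinamide replicate 1, which stood apart for Lcn2, Spp1 and Dcdc2a. Havcr1 was followed most closely by Slc20a1, a phosphate carrier (r = 0.775, rho = 0.689), and Rab5a of early endosomes (r = 0.749, rho = 0.787). Lcn2 was followed by Colgalt1, a collagen-modifying enzyme (r = 0.833, rho = 0.794), by the laminin receptor Bcam (r = 0.833, rho = 0.768) and by Ehf, an epithelial transcription factor (r = 0.804, rho = 0.724). The closest to Vcam1 was Ctxn1 (r = 0.854, rho = 0.839), with Sox9 as the third. Cd44 was followed by 2 smooth muscle genes among its 3 closest, Tagln (r = 0.800, rho = 0.763) and Acta2 (r = 0.730, rho = 0.653). For Dcdc2a they were Cd14 of myeloid cells (r = 0.762, rho = 0.666), Cavin1 of caveolae (r = 0.757, rho = 0.595) and Mrc1, a mannose receptor of macrophages (r = 0.753, rho = 0.471). Nicotinamide replicate 1 had the highest treated level of both Dcdc2a and Mrc1 (25.9 CPM of Mrc1, with a group median of 8.88 CPM). The closest genes to Spp1, Clu, Sox4, Sox9 and Il34 were Knop1 (r = 0.802, rho = 0.765), Rce1 (r = 0.790, rho = 0.780), Ttc14 (r = 0.792, rho = 0.792), P2ry10 (r = 0.778, rho = 0.804) and Dctn4 (r = 0.734, rho = 0.741).

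Further genes of injured tubules, listed apart from the 10, were read beside them. Of 28 further genes of acute injury 25 were tested and 9 rose with age (36.0%, against 3.90% of all genes), none fell, and the median log2 fold change was 0.64. Vim, a filament protein of dedifferentiated and mesenchymal cells, went from 32.4 ± 7.36 to 55.8 ± 8.80 CPM (adjusted p = 0.000593), and Timp1, an inhibitor of matrix proteases, from 0.492 ± 0.787 to 2.90 ± 1.33 CPM (adjusted p = 0.0160). Others that rose were C3 of complement (2.48-fold), the calcium-binding S100a6 (2.35-fold) and S100a10 (1.28-fold), Anxa2 (1.58-fold) and the lectin Lgals3 (1.55-fold), with adjusted p of 0.0122 to 0.0291 in edgeR. Of 22 further genes of failed repair 20 were tested and 10 rose, none fell, with a median of 0.48. Ceruloplasmin (Cp), a copper protein, went from 67.4 ± 7.91 to 132 ± 24.3 CPM (adjusted p = 0.00118), and Akap12, a scaffold of kinases, from 17.9 ± 4.49 to 33.2 ± 6.79 CPM (adjusted p = 0.000593). The chemokines Ccl2 (3.69-fold) and Cx3cl1 (1.47-fold), the adhesion molecule Icam1 (1.95-fold), the progenitor marker Prom1 (1.48-fold) and the macrophage growth factor Csf1 (1.83-fold) rose as well, with adjusted p of 0.00115 to 0.0266 in edgeR. The acute and failed-repair lists held 8 and 9 called genes without the same 4 kidneys, and 11 and 12 without nicotinamide replicate 1. They held 11 and 11 in DESeq2 and 7 and 6 in limma-voom. Of all genes 1031, 1305 and 1282 were called in the first 3 of these settings, against 1034 in the main fit. Over 32 alternatives, limma-voom among them, 668 to 1399 of all genes were called.

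With nicotinamide 0 of these 25 and 0 of these 20 genes passed in edgeR, DESeq2 or limma-voom, with 0 and 1 at an unadjusted p below 0.05, and the medians were 0.09 and −0.06. Lowest in p were the integrin Itgb8 (−0.19 ± 0.09, adjusted p = 0.755), Prom1 (−0.25 ± 0.13, adjusted p = 0.807) and the fibrinogen chain Fga (0.64 ± 0.34, adjusted p = 0.811). Nicotinamide replicate 1 was the lowest treated kidney for Itgb8 (91.7 CPM) and the highest for Prom1 (69.8 CPM). It was also the highest for Fga (40.5 CPM, with a group median of 10.2 CPM).

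**Figure D4:**
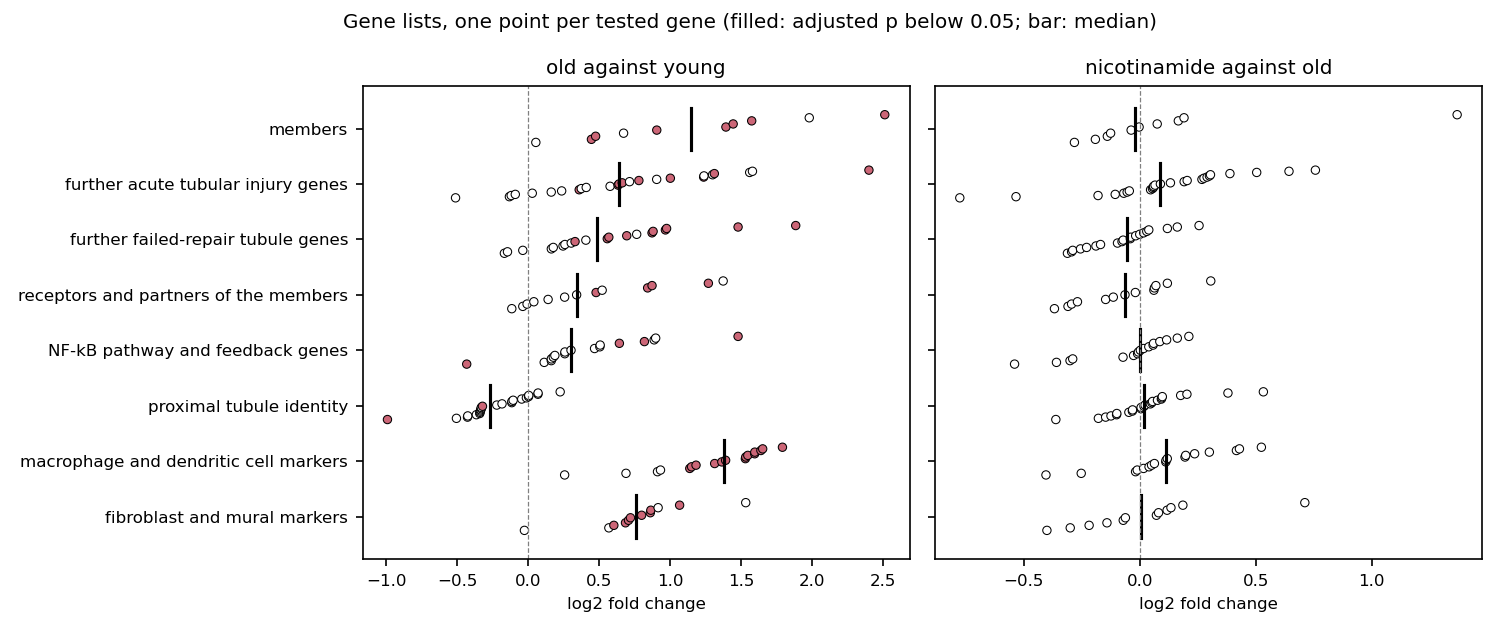
Log2 fold change (horizontal axes) of every tested gene in 8 lists, for old against young and for nicotinamide against old; filled points passed at an adjusted p below 0.05 and bars are medians. In old against young the bar of the 10 genes (members) is at 1.15 and that of proximal tubule identity at −0.27; in nicotinamide against old 0 points are filled.

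Receptors and partners of the proteins divided. Itga4, the α4 chain that pairs into the VCAM-1 receptor, rose with age from 4.24 ± 2.07 to 9.93 ± 2.44 CPM (adjusted p = 0.00364). For interleukin 34 the other ligand of the same receptor, Csf1, rose, while Il34 itself and the receptor Csf1r (57.2 ± 11.4 and 68.5 ± 14.8 CPM, 0.25 ± 0.12, adjusted p = 0.236) did not pass. Sdc1, a heparan sulfate proteoglycan, rose 1.79-fold and Itga9, an integrin chain that binds osteopontin, 1.39-fold (adjusted p = 0.0245 and 0.0486). Lrp2, the megalin receptor that takes up filtered lipocalin 2, stood at −0.12 ± 0.08 (adjusted p = 0.456). In all, 4 of 13 tested genes of this list rose (30.8%, against 3.90% of all genes). Of its 20 genes 7 were too low to test, the hyaluronan synthases Has1, Has2 and Has3 among them.

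Of 17 tested genes of the NF-kB pathway, which drives Vcam1 in inflamed cells, 3 rose and 1 fell with age. Together they were 23.5% of the 17, against 7.04% of all genes (3.90% higher and 3.15% lower). Of the 17, 16 had a positive log2 fold change (median 0.30), and Chuk alone was below 0. The inhibitor Nfkbia rose 1.56-fold, the receptor Tnfrsf1b 1.76-fold and the adaptor Traf1 2.78-fold (adjusted p = 0.0197, 0.0146 and 0.0347), and Chuk, which encodes the kinase IKKα, fell to 0.740-fold (adjusted p = 0.00201). Of 24 proximal tubule identity genes 2 fell and none rose (8.33%, against 3.15% of all genes that fell; median −0.27): Hnf4a, the transcription factor of the differentiated proximal tubule, to 0.799-fold (adjusted p = 0.0120) and the acyl-CoA synthetase Acsm3 to 0.502-fold (adjusted p = 0.0397). Counted in either direction, 8 of the 24 passed without nicotinamide replicate 1 (1305 of all genes) and 7 without the 4 kidneys (1031 of all genes). In DESeq2 5 passed (1282 of all genes), and in limma-voom 5. The main fit had 2 of the 24 and 1034 of all genes. With nicotinamide 0 of the 13 partner, 0 of the 17 NF-kB and 0 of the 24 proximal tubule genes passed in edgeR or DESeq2, with 0, 0 and 1 at an unadjusted p below 0.05, and the medians were −0.06, 0.00 and 0.02. Hnf4a was at 0.05 ± 0.08 and Itga4 at −0.37 ± 0.24 (adjusted p = 0.954 and 0.865).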

How the data were processed

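The authors deposited raw counts of reads per mouse Ensembl gene from 22 QuantSeq 3′ FWD libraries, 1 per animal. The submitters' processing notes name STAR, HTSeq and, although every identifier is of mouse, GRCh38. Versions, strandedness and treatment of duplicates were not given in the sources used here. Symbols came from GENCODE M21. The 5 HTSeq summary entries stayed out of totals; reads in no gene were 19.1% to 24.7%.

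Genes passing filterByExpr (minimum count 10) were fitted in edgeR 4.0.16 with TMM factors, all 22 libraries in 1 robust quasi-likelihood fit; contrasts were two-sided and adjusted over 14683 genes. SEs came from the fold change and its F. Correlations used log2 CPM with a prior count of 2. On simulated old against young data (14372 genes) 84.0% of genes changed 2-fold and 100% of those changed 4-fold were recovered, with 11 unchanged genes called. The simulated counts followed the fitted dispersions, with no kidney made to stand apart. Genes of low mean level were not among those changed, and both old groups were changed alike. The recovery holds for that setting only. Alternatives were RLE and upper quartile factors, no filter, a minimum count of 30, DESeq2 1.42.0, limma-voom (limma 3.58.1), no robust dispersions, both groups alone, a replicate block and left-out libraries. All 71 library pairs within groups differed by more than counting noise.

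The 10 genes and all lists were chosen with earlier results of these data known. Genes named from other lists were the 14 of lowest p that passed with age in the further injury lists, the 3 of lowest p with nicotinamide, up to 4 that passed in each other pathway list, and Csf1r, Itga4 and Lrp2; Sox11 and Sox12 were added after their values were seen. Some marker lists are not reported here.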

Additional observations from a re-analysis of the deposited data

Results flagged for a closer look

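In 6 of the 30 sets of values (10 genes in 3 groups), 1 kidney stood apart from the others of its group by Dixon's test at 95%. The test flags about 1 set in 20 where values are independent and normally distributed. These sets share kidneys and were tested as linear CPM, so that rate need not hold for them. Nicotinamide replicate 1 stood apart for 3 genes: Lcn2 (133 CPM, the next kidney at 27.2), Spp1 (587 CPM, the next at 265) and Dcdc2a (31.9 CPM, the next at 21.1). Old replicate 2 did so for Vcam1 (70.7 CPM, the next at 45.0) and Sox9 (32.4 CPM, the next at 19.5). Young replicate 3 did so for Havcr1 (4.80 CPM, the next at 2.03), and it had the highest young level of 5 of the 10 genes.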

How the results depend on the processing

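The counts of the 10 genes that passed ranged over 32 alternatives from 6 to 9 for old against young and from 7 to 9 for nicotinamide against young, and were 0 throughout for nicotinamide against old. Of 960 fold changes of single genes under an alternative 897 kept their direction and side of the threshold, 19 lost and 13 gained a call, and 31 changed sign; the cause was not tested. None of the genes whose sign changed had passed in that comparison. Havcr1 with nicotinamide (−0.0025 with all) was 0.00022 with upper quartile factors, 0.0016 in the fit of both groups alone and 0.061 without the 4 kidneys named above. Without those 4, Spp1 with nicotinamide was −0.030, and Il34 was −0.018 both in old and in treated against young. With 1 library left out at a time, the log2 fold changes of nicotinamide against old ran from −0.13 to 0.16 for Havcr1, −0.049 to 0.24 for Spp1, −0.11 to 0.011 for Sox4, −0.25 to 0.14 for Sox9 and −0.26 to 0.00014 for Cd44, and that of old against young from −0.060 to 0.15 for Il34.

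Over all genes the left-out libraries gave 668 to 1305 calls for old against young (1034 with all), 1 to 9 for nicotinamide against old (4 with all) and 835 to 1438 for nicotinamide against young (1277 with all). The lowest counts for both contrasts with young came without young replicates 2 or 4. Nicotinamide against old gave 7 calls with no filter, 10 in DESeq2 and 2 without robust dispersions, and nicotinamide against young gave 801 without the 4 kidneys. Of the pairs, 3 passed by Pearson's r, 0 by Spearman's rho and 1 without the 4 kidneys. Replicate numbers recur in the groups, but the 20 same-numbered pairs of libraries correlated at −0.08 to 0.06 (0 above 0.1), and 2 of 22 libraries matched best with their own number. With a replicate block 7, 0 and 9 of the 10 genes passed in the 3 comparisons, and 904, 3 and 1081 of all genes. Alternatives for the other lists were added after the data were seen. At 3 to 32 reads, young levels of Havcr1 are set by few reads.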
